A study of Homo sapiens with 24 samples.

Results

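The transcripts of 40 genes of homologous recombination, the Fanconi anaemia pathway and the DNA damage checkpoints were followed among the 60675 genes of each count file. The genes were taken as a list by symbol, each matched to 1 Ensembl identifier. The list rests on gene function and has no threshold on a measured value, but it was drawn up with earlier results of these data known. All 40 were present in the files and all 40 passed the filter on low counts in every fit. RNA had been sequenced in 24 libraries of the human triple-negative breast cancer cell lines MDA-MB-436 and MDA-MB-231, 3 in each of 8 groups. In each line the groups were cells expressing a short hairpin RNA (shRNA) against MDM2, cells expressing a non-targeting shRNA, cells given YX-2-30 and cells given its DMSO vehicle. YX-2-30 is an MDM2 PROTAC, a small molecule that brings MDM2 to a ubiquitin ligase for degradation. MDM2 is itself a ubiquitin ligase. All cells grew in DMEM with fetal bovine serum, and the labels give neither the dose and time of YX-2-30 nor the number of hairpins or clones. MDA-MB-436 is a BRCA1-mutant line, so a difference between the lines cannot be told apart from the BRCA1 genotype. The question the design poses for these genes is whether loss of MDM2 moved their RNA against the matched control, and whether the lines differed in this.

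Homologous recombination copies a sister chromatid to mend a broken chromosome. The MRE11, RAD50 and NBN complex senses the break, RBBP8 and EXO1 help to cut back an end, and BRCA1, PALB2 and BRCA2 prepare the exposed strand for pairing with its intact copy. The Fanconi core complex tags FANCD2 and FANCI with ubiquitin at crosslinked DNA, and ATM, ATR, CHEK1 and CHEK2 hold the cell cycle while repair proceeds. Many of these genes are transcribed from late G1 into S phase, among them targets of E2F factors, and BRCA1 or BRCA2 loss is a known cause of hereditary breast cancer.

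Library totals, in units of 1000000 counts, lay between 33.4 and 174.7 with a median of 64.0. MDM2 RNA was not lower by test in the libraries labelled MDM2 shRNA, at 23.7 ± 7.68 scaled CPM against 25.4 ± 4.52 in non-targeting libraries of MDA-MB-436 and 26.0 ± 3.77 against 17.7 ± 5.8 in MDA-MB-231 (SD, n = 3 each, edgeR adjusted p 0.78 and 0.137). The hairpin groups are therefore called by their labels, and each direction given for them below is that of libraries whose MDM2 RNA did not check the label. A PROTAC acts on the protein, so MDM2 RNA does not check that label. The MDA-MB-436 PROTAC replicate 3 was the shallowest library and stood apart from its own replicates, with a Spearman correlation of 0.964 against at least 0.978 within the other groups. Without it the counts of genes that rose and fell below were 22 and 3 with the PROTAC and 29 and 3 with the shRNA label in MDA-MB-436. Of the defining markers of other cells, DCN had no count in any library, while others were detected. Marker levels are plain counts per 1000000 of a library's total (CPM), without TMM scaling. Over the 12 libraries of a line, PTPRC lay between 0 and 0.235 CPM, CD14 between 5.02 and 13.9, CD68 between 15.1 and 37.7, KDR between 2.11 and 8.26 and COL1A1 between 3.81 and 6.70 in MDA-MB-436. In MDA-MB-231 PTPRC lay between 2.86 and 5.21, CD14 between 0.721 and 2.15, CD68 between 28.4 and 44.3, KDR between 6.91 and 9.54 and COL1A1 between 13.8 and 32.0. The labels call the cells epithelial breast cells, and the hormone receptor genes ESR1 and PGR stayed at or under 0.219 and 0.599 CPM in MDA-MB-436 and at or under 0.414 and at 0 in MDA-MB-231. The other luminal markers were detected: ERBB2 between 42.1 and 61.0, GATA3 between 0.544 and 5.54 and FOXA1 between 6.80 and 10.7 CPM in MDA-MB-436, and ERBB2 between 65.5 and 91.4, GATA3 between 5.41 and 10.4 and FOXA1 between 3.24 and 8.36 in MDA-MB-231. Scaled CPM are counts per 1000000 of a library's total after edgeR's TMM scaling within the line. A gene is said to have risen or fallen where edgeR's quasi-likelihood test gave a Benjamini-Hochberg adjusted p under 0.05 over all genes tested. Whether a group's 3 libraries came from separate cultures is not labelled, and p-values measure the spread between them, which may be technical.

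The promoters of 4 of these genes are shown because the results turn on them. EXO1 had the largest rise of the 40 in MDA-MB-436, BRCA1 is the gene mutated in that line, and FANCF and PARP1 fell there. The sequences are RefSeq on GRCh38.p14, from 250 bases before to 50 bases after the start, 5′ to 3′ on the gene's strand. They lie at chr1:241847954-241848253 on the plus strand for EXO1, and on the minus strand at chr17:43125315-43125614 for BRCA1, chr11:22625774-22626073 for FANCF and chr1:226408044-226408343 for PARP1. Capitals mark letters of an E2F-like motif in EXO1 and of the CCAAT box in BRCA1 and FANCF, and the PARP1 window held no searched motif.
EXO1: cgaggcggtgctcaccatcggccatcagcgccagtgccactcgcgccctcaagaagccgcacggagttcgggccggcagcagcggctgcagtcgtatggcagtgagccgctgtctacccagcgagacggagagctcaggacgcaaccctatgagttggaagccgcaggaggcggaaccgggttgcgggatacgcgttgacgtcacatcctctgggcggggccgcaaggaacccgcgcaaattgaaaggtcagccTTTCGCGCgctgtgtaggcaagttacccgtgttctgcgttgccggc
BRCA1: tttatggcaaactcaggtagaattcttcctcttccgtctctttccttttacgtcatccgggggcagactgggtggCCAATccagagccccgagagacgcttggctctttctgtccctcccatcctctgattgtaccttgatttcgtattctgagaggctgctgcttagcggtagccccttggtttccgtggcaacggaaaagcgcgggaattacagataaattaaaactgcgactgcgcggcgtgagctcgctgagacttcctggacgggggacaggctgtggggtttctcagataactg
FANCF: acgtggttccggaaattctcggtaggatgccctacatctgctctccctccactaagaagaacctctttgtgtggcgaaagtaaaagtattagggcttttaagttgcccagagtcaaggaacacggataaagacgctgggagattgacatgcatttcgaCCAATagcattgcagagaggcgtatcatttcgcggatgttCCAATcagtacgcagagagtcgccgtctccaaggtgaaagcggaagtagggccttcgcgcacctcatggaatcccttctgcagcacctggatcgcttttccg
PARP1: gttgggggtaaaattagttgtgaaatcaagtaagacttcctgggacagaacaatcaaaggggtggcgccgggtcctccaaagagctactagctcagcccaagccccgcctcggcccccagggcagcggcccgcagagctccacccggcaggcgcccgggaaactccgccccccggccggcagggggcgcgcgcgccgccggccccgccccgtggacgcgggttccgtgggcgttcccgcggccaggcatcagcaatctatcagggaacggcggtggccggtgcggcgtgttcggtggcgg
Of the 40 genes, 36 had a promoter in the RefSeq table, and 8 of these (22.2%) held 1 of the E2F-like words TTTCGCGC, TTTGGCGC, TTTCCCGC and TTTGCCGC on either strand, against 1164 of all 35116 promoters (3.31%). The 8 were EXO1, FANCA, FANCC, FANCD2, MSH6, RMI1, TOPBP1 and XRCC2. Among the 12 genes with a promoter that rose in all 4 treatment comparisons, 4 held such a word (33.3%). So did 4 of the 24 that rose in fewer than 4 (16.7%), and a bearing of the word on the rises was not tested. CCAAT stood in 16 of the 36 (44.4%) against 34.6% of all promoters. The cell-cycle words TTTGAA and TTCGAA stood in 4 (11.1%) against 16.4%. The sets are unlike. For the 40 genes the window with the most transcript starts was taken, whereas all promoters were not chosen so and were not limited to genes that passed the filter. The shares are therefore not shown to be particular to repair genes. A match is only these letters in this window.

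In MDA-MB-436, 28 of the 40 genes rose and 2 fell in libraries labelled MDM2 shRNA against non-targeting shRNA, where 16% of all 22663 genes tested rose and 14.4% fell. With the PROTAC against DMSO, 24 rose and 3 fell in this line, against 17.3% and 15.1% of all genes. In MDA-MB-231, 22 rose and none fell in libraries labelled MDM2 shRNA, where 11.1% of all 20675 genes tested rose and 11.6% fell. The PROTAC raised 21 and lowered none in MDA-MB-231, against 11.1% and 11.5% of all genes. The median log2 change of the 40 was 0.53 and 0.47 in MDA-MB-436 with the shRNA label and the PROTAC, and 0.25 and 0.36 in MDA-MB-231, whereas the median over all genes tested lay between -0.01 and 0.04. DESeq2 and limma voom also called no fall among the 40 in MDA-MB-231, where FANCC and FANCF were lower with the shRNA label at an unadjusted p under 0.05. In bulk RNA, fewer cells in a state and less RNA per cell cannot be told apart.

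**Figure D1:**
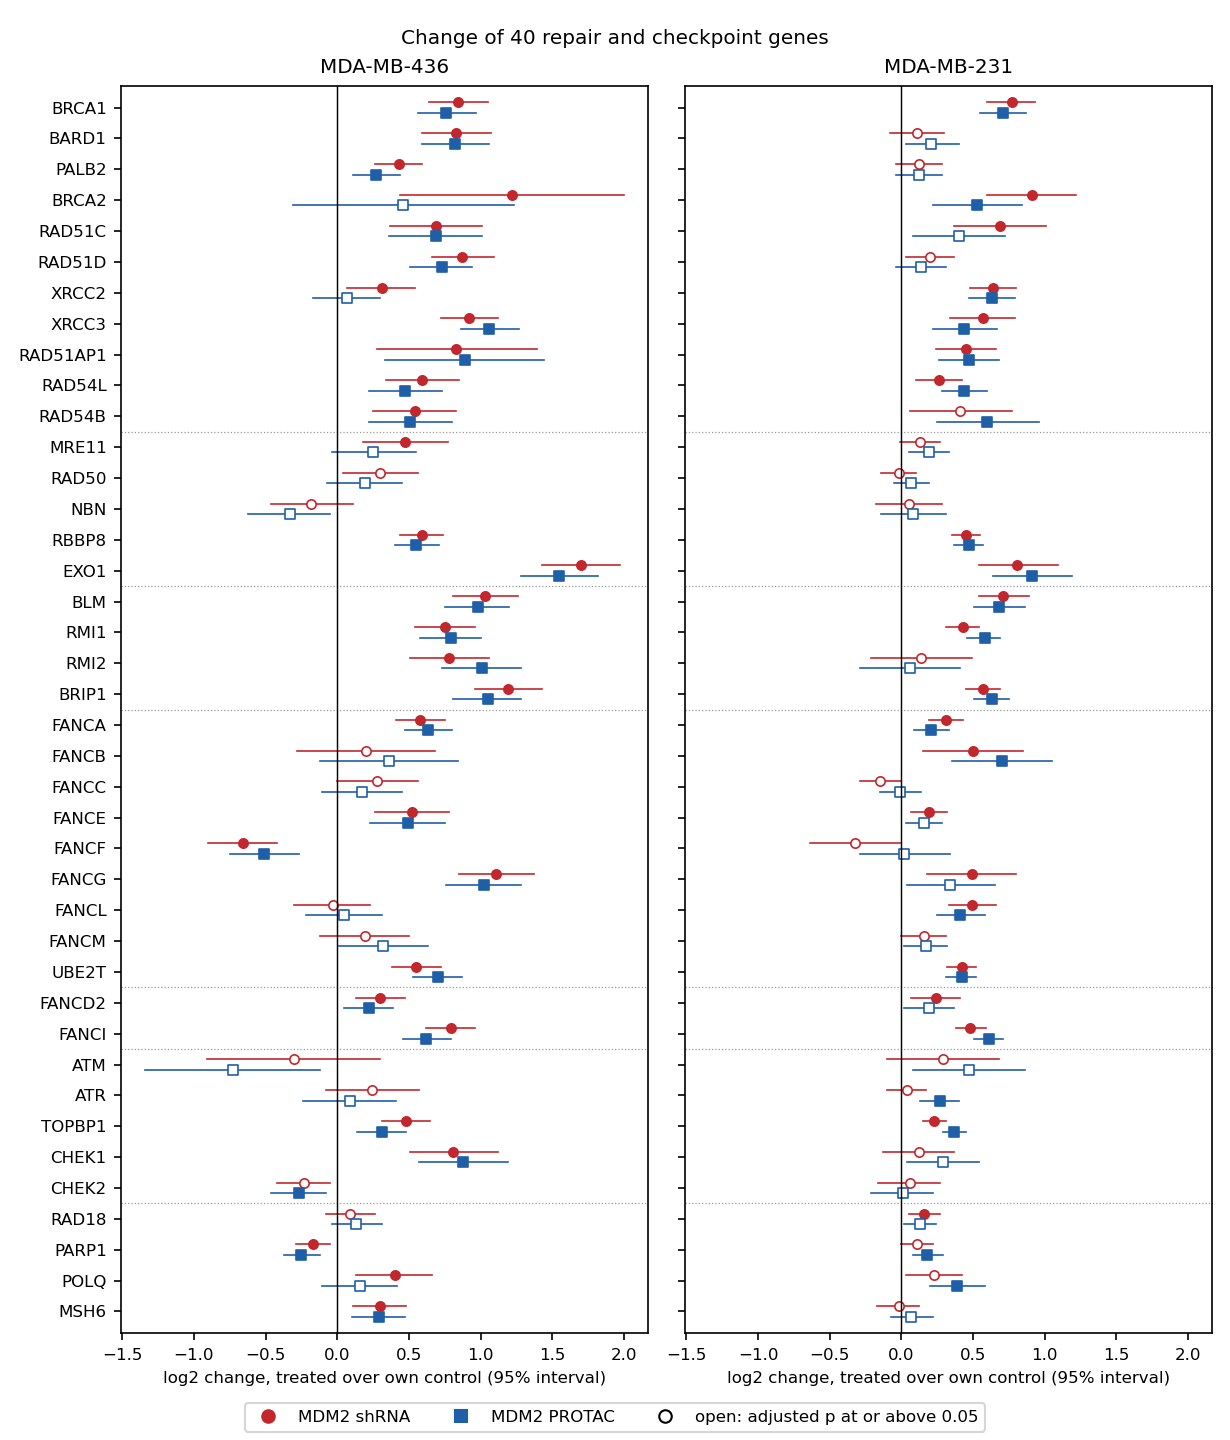
Log2 change of each of the 40 genes, treated over its own control, with 95% intervals from edgeR, in MDA-MB-436 (left) and MDA-MB-231 (right). Circles are libraries labelled MDM2 shRNA and squares the PROTAC, open symbols did not pass an adjusted p of 0.05, and dotted lines part the roles. EXO1 lies farthest right in MDA-MB-436 at 1.70 and 1.55. FANCF, PARP1 and CHEK2, the genes with a called fall, lie left of 0 there, PARP1 with the shRNA label at 0.01 when library totals alone are used. ATM, not called, lies farthest left in that line, at -0.73 with the PROTAC, and NBN, not called, also lies left of 0.

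Cell-cycle genes changed too, those of S phase mainly upwards and those of G2 and mitosis mainly downwards. Of 16 S-phase genes, 13 rose and none fell in either MDA-MB-436 comparison, and 9 rose and 4 fell with the shRNA label and 8 rose and 3 fell with the PROTAC in MDA-MB-231. Of 12 genes of G2 and mitosis, 10 fell in either MDA-MB-436 comparison and 8 in either MDA-MB-231 comparison, with 1 rise, CDK1 in MDA-MB-231 with the shRNA label. The 100 most abundant genes took 15.3 to 16.6% of counts in treated libraries and 18.5 to 20.4% in control libraries. In MDA-MB-436 mitochondrial genes took 5.47 to 5.50% in treated libraries and 6.78 to 7.26% in controls. The summed level of 5 fibroblast markers (COL1A1, DCN, LUM, PDGFRA and PDGFRB, with DCN at 0) lay between 8.06 and 11.8 CPM, without TMM scaling, in treated and between 4.58 and 6.80 in control libraries of MDA-MB-436, and between 35.4 and 41.3 in treated and between 17.7 and 21.8 in control libraries of MDA-MB-231. The sum of the 4 mesenchymal markers VIM, CD44, EGFR and AXL lay between 1583.4 and 1690.3 CPM, again without TMM scaling, in treated and between 1890.2 and 2270.0 in control libraries of MDA-MB-436, and between 5072.2 and 5309.7 in treated and between 7442.3 and 9026.0 in control libraries of MDA-MB-231. The part of these shifts in the change of the repair genes was not tested. With library totals alone in place of TMM scaling, the median over all genes was 0.22 and 0.21 in MDA-MB-436 and 0.11 and 0.08 in MDA-MB-231, and 72.8, 70.9, 68.0 and 65.6% of all calls were then rises.

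Counts by role, here and below, are to be read against all genes tested. Of those 11.1 to 17.3% rose and 11.5 to 15.1% fell, depending on the comparison. Strand exchange was the role with the most genes. All 11 of its genes rose in MDA-MB-436 with the shRNA label and 9 with the PROTAC, and 7 rose in MDA-MB-231 with either. BRCA1 (chr17:43044295-43170245, minus strand, GRCh38), which directs a broken end towards recombination, rose each time. In MDA-MB-436 it stood at 48.2, 36.9 and 43.8 scaled CPM in libraries labelled MDM2 shRNA against 23.2, 24.9 and 23.8 in non-targeting libraries, and 47.7, 49.1 and 47.4 with the PROTAC against 29, 28.1 and 27.9 with DMSO. In MDA-MB-231 it stood at 57.4, 49.6 and 55.9 scaled CPM in libraries labelled MDM2 shRNA against 32.8, 30.9 and 32.1 in non-targeting libraries, and 56.5, 48.5 and 51.0 with the PROTAC against 32.8, 30.9 and 31.6 with DMSO. Every treated library was above every matched control in both lines. The log2 changes were 0.84 ± 0.093 (adjusted p 4.41e-05) and 0.76 ± 0.093 (adjusted p 8.26e-05) in MDA-MB-436, and 0.77 ± 0.074 (adjusted p 2.81e-05) and 0.71 ± 0.074 (adjusted p 4.73e-05) in MDA-MB-231, for the shRNA label and then the PROTAC (± is the SE of edgeR's fit, here and below). A gene count does not tell mutant from intact transcript.

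BRCA2, which acts on the exposed single strand, varied between libraries. In MDA-MB-436 it stood at 52.8, 61.2 and 32.8 scaled CPM in libraries labelled MDM2 shRNA against 17.4, 18.6 and 27.0 in non-targeting libraries, and 22.4, 60.0 and 49.1 with the PROTAC against 37.7, 22.3 and 35.6 with DMSO. The PROTAC libraries overlapped their controls there, with 0.46 ± 0.35 (adjusted p 0.36), while the shRNA-labelled libraries did not, with 1.22 ± 0.35 (adjusted p 0.0217). In MDA-MB-231 it stood at 64.0, 62.9 and 64.5 scaled CPM in libraries labelled MDM2 shRNA against 35.7, 34.5 and 31.6 in non-targeting libraries, and 50, 72.3 and 61.6 with the PROTAC against 34.1, 46.5 and 47.0 with DMSO. Neither pair overlapped there, and the log2 changes were 0.91 ± 0.14 (adjusted p 0.000797) and 0.53 ± 0.14 (adjusted p 0.0192). The BRCA2 call in MDA-MB-436 ended without the MDM2 shRNA replicate 1 or 2 or the non-targeting replicate 1 or 2 (log2 change 1.02 to 1.15, adjusted p 0.0632 to 0.0847). Its PROTAC call in MDA-MB-231 ended without the PROTAC replicate 2 or the DMSO replicate 1 (log2 change 0.39, adjusted p 0.0618 to 0.0783). BARD1, the partner of BRCA1 in its ligase, rose in MDA-MB-436 by 0.83 ± 0.11 and 0.82 ± 0.11 and did not pass the test in MDA-MB-231, at 0.11 and 0.21. PALB2, the bridge between BRCA1 and BRCA2, rose in MDA-MB-436 by 0.43 ± 0.075 and 0.27 ± 0.075 and stood at 0.12 in both MDA-MB-231 comparisons. The PROTAC call of PALB2 ended without the DMSO replicate 3 (log2 change 0.26, adjusted p 0.0517).

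RAD51C, RAD51D, XRCC2 and XRCC3, which work together in complexes that assist strand exchange, differed among themselves. XRCC3 rose each time. In MDA-MB-436 it stood at 73.4, 83.7 and 84.2 scaled CPM in libraries labelled MDM2 shRNA against 44.1, 43.0 and 40.1 in non-targeting libraries, and 77.3, 71.7 and 73.9 with the PROTAC against 37.1, 38.4 and 31.2 with DMSO. In MDA-MB-231 it stood at 78.0, 84.9 and 76.4 scaled CPM in libraries labelled MDM2 shRNA against 50.4, 59.0 and 52.3 in non-targeting libraries, and 65.8, 76.8 and 84.5 with the PROTAC against 50.2, 55.8 and 60.9 with DMSO. No treated library overlapped a matched control, and the log2 changes were 0.92 ± 0.092 (adjusted p 1.88e-05) and 1.06 ± 0.092 (adjusted p 6.62e-06) in MDA-MB-436 and 0.57 ± 0.10 (adjusted p 0.00219) and 0.44 ± 0.10 (adjusted p 0.00879) in MDA-MB-231. XRCC2 was the one with more calls in MDA-MB-231. There it stood at 69.7, 73.2 and 71.3 scaled CPM in libraries labelled MDM2 shRNA against 45.7, 50.3 and 41.4 in non-targeting libraries, and 77.4, 69.8 and 69.1 with the PROTAC against 46.4, 48.0 and 45.3 with DMSO. No libraries overlapped, and it rose by 0.64 ± 0.072 (adjusted p 8.63e-05) and 0.63 ± 0.072 (adjusted p 0.000102). In MDA-MB-436 it was 0.31 ± 0.11 (adjusted p 0.0484) with the shRNA label, a call that ended without the MDM2 shRNA replicate 1, 2 or 3 or the non-targeting replicate 1, 2 or 3 or the PROTAC replicate 2 or the DMSO replicate 1, 2 or 3 (log2 change 0.28 to 0.33, adjusted p 0.0648 to 0.149), and 0.07 ± 0.11 (adjusted p 0.685) with the PROTAC. RAD51D rose in MDA-MB-436, with 29.5, 30.5 and 33.0 scaled CPM in libraries labelled MDM2 shRNA against 17.2, 16 and 17.6 in non-targeting libraries, and with log2 changes of 0.87 ± 0.099 (adjusted p 5.12e-05) and 0.73 ± 0.099 (adjusted p 0.000171). In MDA-MB-231 it was not called, at 0.20 and 0.14. RAD51C rose to 22.2, 25.1 and 30.7 in MDA-MB-231 libraries labelled MDM2 shRNA against 15.5, 18.6 and 14.3 in non-targeting ones, 0.69 ± 0.15 (adjusted p 0.00595). It also rose in both MDA-MB-436 comparisons, each by 0.69, and its 0.40 with the PROTAC in MDA-MB-231 did not pass.

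RAD51AP1 stimulates strand invasion, and RAD54L and RAD54B are motor proteins that act on the joined strands. In MDA-MB-436 RAD51AP1 stood at 150, 152.4 and 131.4 scaled CPM in libraries labelled MDM2 shRNA against 84.3, 75.5 and 83.8 in non-targeting libraries, and 83.3, 117.0 and 192.2 with the PROTAC against 81.0, 52.4 and 78.4 with DMSO, with a wide spread in the PROTAC libraries. In MDA-MB-231 it held 65.8, 57.6 and 67.0 scaled CPM in libraries labelled MDM2 shRNA against 47.8, 42.2 and 49.0 in non-targeting libraries, and 68.5, 67.9 and 65.1 with the PROTAC against 47.7, 42.8 and 55.3 with DMSO. The groups did not overlap, and it rose by 0.83 ± 0.25 (adjusted p 0.0263) and 0.89 ± 0.25 (adjusted p 0.0185) in MDA-MB-436 and by 0.45 ± 0.096 (adjusted p 0.00581) and 0.47 ± 0.096 (adjusted p 0.00473) in MDA-MB-231. Its MDA-MB-436 calls ended without the MDM2 shRNA replicate 1 or 2 or the non-targeting replicate 1, 2 or 3 (log2 change 0.78 to 0.87, adjusted p 0.0608 to 0.0871) for the shRNA label, and without the PROTAC replicate 3 or the DMSO replicate 2 (log2 change 0.50 to 0.73, adjusted p 0.0639 to 0.0685) for the PROTAC. In MDA-MB-436 RAD54L held 76.5, 73.6 and 91.3 scaled CPM in libraries labelled MDM2 shRNA against 57.2, 52.0 and 50.7 in non-targeting libraries, and 77.2, 85.1 and 69.7 with the PROTAC against 61.6, 57.3 and 48.3 with DMSO. In MDA-MB-231 it held 59.1, 50.5 and 60.4 scaled CPM in libraries labelled MDM2 shRNA against 44.6, 46.9 and 50.3 in non-targeting libraries, and 59.9, 63.2 and 60.9 with the PROTAC against 43.4, 45.8 and 46.5 with DMSO. It rose by 0.59 ± 0.12, 0.47 ± 0.12, 0.26 ± 0.073 and 0.44 ± 0.073 in the same order, with no overlap, and the MDA-MB-231 shRNA-label call ended without the MDM2 shRNA replicate 1 or 3 or the non-targeting replicate 1 or 2 (log2 change 0.21 to 0.24, adjusted p 0.0837 to 0.117). RAD54B reached 32.2, 33.1 and 34.1 scaled CPM with the PROTAC in MDA-MB-231 against 14.9, 26.1 and 24.4 with DMSO, 0.60 ± 0.16 (adjusted p 0.0193), a call that ended without the PROTAC replicate 3 (log2 change 0.58, adjusted p 0.0548). It also rose in MDA-MB-436, by 0.54 ± 0.13 and 0.51 ± 0.13.

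**Figure D2:**
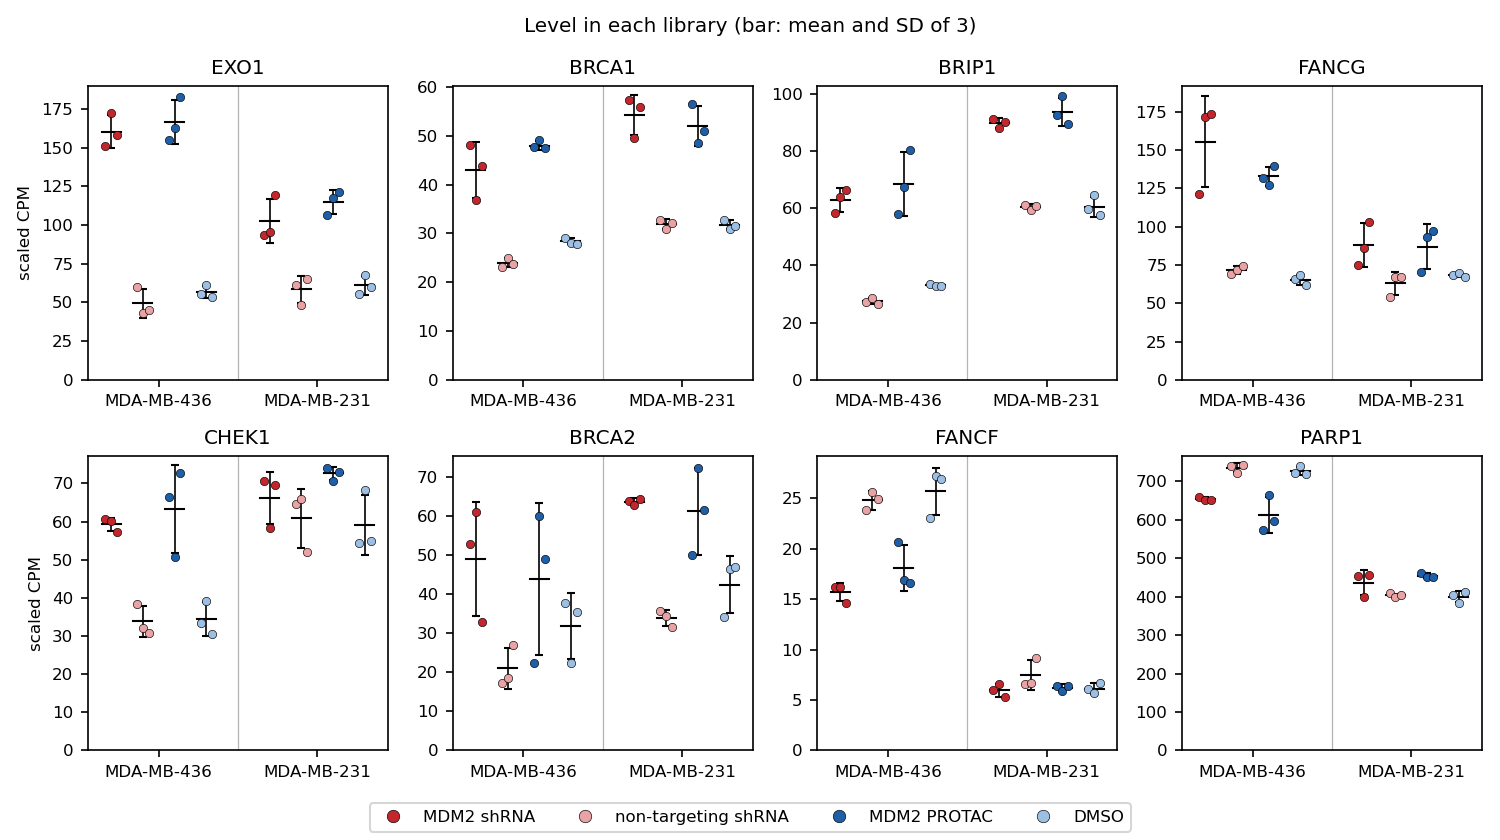
Scaled CPM in each library for 8 of the genes, with MDA-MB-436 at the left and MDA-MB-231 at the right of each panel, and each treated group left of its own control. Bars give the mean and SD of 3 libraries. EXO1, BRCA1 and BRIP1 lie above their controls in all 4 pairs, FANCF and PARP1 lie below theirs in MDA-MB-436, and the BRCA2 PROTAC libraries of MDA-MB-436 spread from 22.4 to 60.0.

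Genes of break sensing and resection split into a part that rose and a part that did not. EXO1 (chr1:241847967-241895148, plus strand), the exonuclease of long-range resection, had the largest rise of the 40 in MDA-MB-436. There it stood at 151.0, 172.4 and 158.0 scaled CPM in libraries labelled MDM2 shRNA against 60.0, 43.3 and 44.9 in non-targeting libraries, and 154.8, 163.0 and 182.7 with the PROTAC against 55.8, 61.4 and 53.8 with DMSO. That is 3.25-fold (95% interval 2.69 to 3.92) and 2.92-fold (95% interval 2.43 to 3.53), with adjusted p 1.97e-06 and 3.45e-06. In MDA-MB-231 it stood at 93.8, 95.3 and 119.3 scaled CPM in libraries labelled MDM2 shRNA against 61.4, 48.7 and 65.2 in non-targeting libraries, and 106.3, 117.7 and 121.2 with the PROTAC against 55.7, 67.5 and 60.3 with DMSO. The change was 1.76-fold (95% interval 1.45 to 2.13) and 1.88-fold (95% interval 1.55 to 2.28), with adjusted p 0.000752 and 0.000355. The lowest treated library was above the highest matched control in every pair. RBBP8, which switches on the MRE11 nuclease, stood at 101.6, 107.3 and 107.5 scaled CPM in libraries labelled MDM2 shRNA against 67.4, 68.8 and 73.6 in non-targeting libraries, and 102.9, 105.1 and 115.9 with the PROTAC against 75.7, 75.3 and 69.4 with DMSO in MDA-MB-436. In MDA-MB-231 RBBP8 held 173.0, 167.9 and 177.8 scaled CPM in libraries labelled MDM2 shRNA against 125.7, 127.1 and 127.6 in non-targeting libraries, and 191.1, 179.4 and 170.8 with the PROTAC against 134.1, 129.6 and 128.0 with DMSO. It rose by 0.59 ± 0.069 (adjusted p 6.24e-05) and 0.55 ± 0.069 (adjusted p 9.09e-05) in MDA-MB-436 and by 0.45 ± 0.046 (adjusted p 4.37e-05) and 0.47 ± 0.046 (adjusted p 3.21e-05) in MDA-MB-231. The MRE11, RAD50 and NBN complex had 1 call over all comparisons, no larger a share than that of all genes called. RAD50 lay between -0.02 and 0.30 and NBN between -0.33 and 0.08 with no call, and MRE11 rose in MDA-MB-436 with the shRNA label, 0.47 ± 0.14 (adjusted p 0.0196), a call that ended without the MDM2 shRNA replicate 1 or 2 or the non-targeting replicate 2 or 3 (log2 change 0.42 to 0.47, adjusted p 0.052 to 0.075).

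Of the helicases and their partners, all 4 rose in either MDA-MB-436 comparison and 3 of 4 in either MDA-MB-231 comparison. BRIP1 is a helicase that binds BRCA1 and is also a Fanconi gene. In MDA-MB-436 it held 58.3, 63.8 and 66.4 scaled CPM in libraries labelled MDM2 shRNA against 27.4, 28.6 and 26.4 in non-targeting libraries, and 58.1, 67.3 and 80.2 with the PROTAC against 33.7, 32.7 and 33.0 with DMSO. In MDA-MB-231 it held 91.3, 88.1 and 90.1 scaled CPM in libraries labelled MDM2 shRNA against 61.3, 59.4 and 60.8 in non-targeting libraries, and 92.7, 99.1 and 89.5 with the PROTAC against 59.6, 64.5 and 57.8 with DMSO. The treated groups lay apart from their controls everywhere, with 1.19 ± 0.11 (adjusted p 8.76e-06) and 1.05 ± 0.11 (adjusted p 2.12e-05) in MDA-MB-436 and 0.57 ± 0.053 (adjusted p 2.29e-05) and 0.63 ± 0.053 (adjusted p 1.13e-05) in MDA-MB-231. BLM, the helicase mutated in Bloom syndrome, held 98.1, 110.2 and 126.1 scaled CPM in libraries labelled MDM2 shRNA against 55.6, 53.1 and 54.7 in non-targeting libraries, and 107.9, 110.9 and 128.2 with the PROTAC against 58.0, 54.3 and 64.1 with DMSO in MDA-MB-436. In MDA-MB-231 BLM held 48.9, 50.7 and 55.8 scaled CPM in libraries labelled MDM2 shRNA against 28.8, 31.0 and 35.0 in non-targeting libraries, and 51.1, 53.9 and 53.2 with the PROTAC against 31.1, 33.9 and 33.5 with DMSO. BLM rose by 1.03 ± 0.10 (adjusted p 1.9e-05) and 0.98 ± 0.10 (adjusted p 2.7e-05) in MDA-MB-436 and by 0.71 ± 0.080 (adjusted p 7.89e-05) and 0.68 ± 0.080 (adjusted p 0.000111) in MDA-MB-231, with no overlap.

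RMI1 and RMI2 hold BLM and TOP3A together in the complex that dissolves crossed strands. RMI1 held 53.5, 55.3 and 56.9 scaled CPM in libraries labelled MDM2 shRNA against 33.4, 31.9 and 33.3 in non-targeting libraries, and 58.8, 60.6 and 75.9 with the PROTAC against 38.9, 35.6 and 38.5 with DMSO in MDA-MB-436. It held 67.3, 67.5 and 73.8 scaled CPM in libraries labelled MDM2 shRNA against 52.7, 52.9 and 49.4 in non-targeting libraries, and 78.7, 76.5 and 77.8 with the PROTAC against 51.1, 51.2 and 53.7 with DMSO in MDA-MB-231. All treated libraries were above all matched controls, with 0.75 ± 0.095 and 0.79 ± 0.095 in MDA-MB-436 and 0.43 ± 0.052 and 0.58 ± 0.052 in MDA-MB-231. RMI2 rose in MDA-MB-436, where the PROTAC gave 22.9, 27.4 and 29.9 scaled CPM against 11.8, 14.6 and 13.4 with DMSO, 1.01 ± 0.13 (adjusted p 9.19e-05), and the shRNA label 0.78 ± 0.12 (adjusted p 0.000567). In MDA-MB-231 its groups overlapped in both pairs, at 0.14 and 0.06. TOP3A, not among the 40, rose in all 4 comparisons, by 1.18, 1.01, 0.56 and 0.47.

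Of the 9 genes of the Fanconi core and its conjugase, 4 rose and 1 fell in either MDA-MB-436 comparison, while 6 rose with the shRNA label and 4 with the PROTAC in MDA-MB-231. FANCA, a scaffold of the core, held 101.4, 96.2 and 99 scaled CPM in libraries labelled MDM2 shRNA against 72.5, 62.9 and 63.1 in non-targeting libraries, and 98.3, 99.2 and 108.9 with the PROTAC against 67.7, 62.0 and 67.9 with DMSO in MDA-MB-436. In MDA-MB-231 FANCA held 96.9, 96.1 and 99.3 scaled CPM in libraries labelled MDM2 shRNA against 78.7, 80.6 and 76.3 in non-targeting libraries, and 87.5, 94.8 and 96.0 with the PROTAC against 80.9, 84.6 and 75.4 with DMSO. It rose by 0.58 ± 0.076 (adjusted p 0.000143) and 0.63 ± 0.076 (adjusted p 7.03e-05) in MDA-MB-436 and by 0.31 ± 0.053 (adjusted p 0.00158) and 0.21 ± 0.053 (adjusted p 0.0161) in MDA-MB-231, with no overlap, and its MDA-MB-231 PROTAC call ended without the PROTAC replicate 2 or 3 or the DMSO replicate 3 (log2 change 0.16 to 0.19, adjusted p 0.0576 to 0.0757). FANCG, which joins FANCA in the core, held 121.2, 171.7 and 173.7 scaled CPM in libraries labelled MDM2 shRNA against 69.4, 71.8 and 74.5 in non-targeting libraries, and 131.7, 127.4 and 139.4 with the PROTAC against 66.0, 68.3 and 61.7 with DMSO in MDA-MB-436. These are 2.16-fold (95% interval 1.81 to 2.59) and 2.03-fold (95% interval 1.7 to 2.43), with adjusted p 3.21e-05 and 5.31e-05. In MDA-MB-231 FANCG rose by 0.49 ± 0.14 (adjusted p 0.0285) with the shRNA label and did not pass with the PROTAC, at 0.34 ± 0.14 (adjusted p 0.108), and the first call ended without the MDM2 shRNA replicate 2 or 3 or the non-targeting replicate 1, 2 or 3 (log2 change 0.36 to 0.52, adjusted p 0.0511 to 0.119).

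FANCF (chr11:22622890-22625841, minus strand), an adaptor of the core, was the 1 Fanconi gene of the 40 that fell. In MDA-MB-436 it held 16.2, 16.2 and 14.6 scaled CPM in libraries labelled MDM2 shRNA against 23.8, 25.6 and 24.9 in non-targeting libraries, and 20.7, 16.9 and 16.6 with the PROTAC against 23.1, 27.2 and 26.9 with DMSO. All treated libraries lay below all controls, with -0.66 ± 0.11 (adjusted p 0.000798) and -0.51 ± 0.11 (adjusted p 0.00395). In MDA-MB-231 FANCF was low, between 5.33 and 9.16 scaled CPM in every library, and not called, at -0.32 and 0.02. FANCB, another core subunit, was called in MDA-MB-231 and not in MDA-MB-436. The PROTAC libraries of MDA-MB-231 held 11.1, 9.0 and 8.47 scaled CPM against 5.07, 7.04 and 5.47 with DMSO, 0.70 ± 0.16 (adjusted p 0.00899). The shRNA-label call of FANCB in MDA-MB-231, 0.50 ± 0.16, ended without the MDM2 shRNA replicate 1 or 3 or the non-targeting replicate 1, 2 or 3 or the PROTAC replicate 2 or 3 or the DMSO replicate 1 or 3 (log2 change 0.38 to 0.55, adjusted p 0.0501 to 0.174). FANCE, which docks FANCD2 on the core, rose by 0.52 and 0.49 in MDA-MB-436 and by 0.19 with the shRNA label in MDA-MB-231, a call that ended without the MDM2 shRNA replicate 1 or 3 or the non-targeting replicate 1, 2 or 3 (log2 change 0.17 to 0.19, adjusted p 0.0728 to 0.112). FANCL, the ligase subunit, rose in MDA-MB-231 by 0.49 ± 0.074 and 0.41 ± 0.074 and stood at -0.03 and 0.05 in MDA-MB-436. FANCC, a core subunit, and FANCM, which brings the core to DNA, were called nowhere, with log2 changes between -0.15 and 0.32.

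UBE2T is the conjugating enzyme that works with FANCL, and FANCI and FANCD2 form the clamp they modify. UBE2T held 76.4, 70.5 and 69.0 scaled CPM in libraries labelled MDM2 shRNA against 50.5, 45.5 and 51.5 in non-targeting libraries, and 81.7, 75.2 and 70.5 with the PROTAC against 46.7, 47.7 and 45.4 with DMSO in MDA-MB-436. It held 107.2, 108.4 and 102.5 scaled CPM in libraries labelled MDM2 shRNA against 81.8, 74.7 and 81.5 in non-targeting libraries, and 102.6, 105.3 and 107.0 with the PROTAC against 80.3, 77.7 and 78.1 with DMSO in MDA-MB-231. The rises were 0.55 ± 0.078 and 0.70 ± 0.078 in MDA-MB-436 and 0.42 ± 0.046 and 0.42 ± 0.046 in MDA-MB-231, with no overlap. FANCI, the more abundant clamp transcript, held 355.3, 365.8 and 367.5 scaled CPM in libraries labelled MDM2 shRNA against 216.7, 198.7 and 214.1 in non-targeting libraries, and 313.4, 389.4 and 336.4 with the PROTAC against 218.4, 227.4 and 228.9 with DMSO in MDA-MB-436. In MDA-MB-231 it held 183.9, 176.6 and 180.7 scaled CPM in libraries labelled MDM2 shRNA against 135.2, 122.3 and 129.6 in non-targeting libraries, and 198.6, 190.9 and 190.3 with the PROTAC against 121.3, 130.1 and 128.3 with DMSO. FANCI rose by 0.79 ± 0.075 (adjusted p 1.39e-05) and 0.62 ± 0.075 (adjusted p 7.32e-05) in MDA-MB-436 and by 0.48 ± 0.046 (adjusted p 2.74e-05) and 0.61 ± 0.046 (adjusted p 5.31e-06) in MDA-MB-231. FANCD2 moved less, by 0.30 ± 0.078 and 0.22 ± 0.078 in MDA-MB-436 and by 0.24 ± 0.078 with the shRNA label in MDA-MB-231, and its PROTAC groups overlapped in MDA-MB-436. Those last calls of FANCD2 ended without the MDM2 shRNA replicate 1, 2 or 3 or the PROTAC replicate 2 or 3 or the DMSO replicate 1 or 2 (log2 change 0.16 to 0.24, adjusted p 0.0754 to 0.133) in MDA-MB-436 and without the MDM2 shRNA replicate 1 or 3 or the non-targeting replicate 1, 2 or 3 or the PROTAC replicate 1, 2 or 3 or the DMSO replicate 1, 2 or 3 (log2 change 0.15 to 0.27, adjusted p 0.0566 to 0.191) in MDA-MB-231.

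Among the 5 checkpoint genes, TOPBP1, the activator of ATR, was the one that rose everywhere. It held 271.1, 277.8 and 301.0 scaled CPM in libraries labelled MDM2 shRNA against 206.0, 194.6 and 208.7 in non-targeting libraries, and 251.3, 301.8 and 306.2 with the PROTAC against 231.7, 222.5 and 239.7 with DMSO in MDA-MB-436. It held 116.4, 114.3 and 118.7 scaled CPM in libraries labelled MDM2 shRNA against 99.2, 99.2 and 98.8 in non-targeting libraries, and 123.2, 118.7 and 121.5 with the PROTAC against 94.7, 95 and 91.7 with DMSO in MDA-MB-231. The rises were 0.48 ± 0.079 (adjusted p 0.000707) and 0.31 ± 0.079 (adjusted p 0.0104) in MDA-MB-436 and 0.23 ± 0.036 (adjusted p 0.000745) and 0.37 ± 0.036 (adjusted p 2.91e-05) in MDA-MB-231, and no groups overlapped. CHEK1, the kinase downstream of ATR, held 60.6, 60.1 and 57.3 scaled CPM in libraries labelled MDM2 shRNA against 38.4, 32.1 and 30.8 in non-targeting libraries, and 66.5, 50.6 and 72.8 with the PROTAC against 33.4, 39.3 and 30.5 with DMSO in MDA-MB-436, where treated libraries stayed above all controls. There it rose by 0.81 ± 0.14 (adjusted p 0.001) and 0.88 ± 0.14 (adjusted p 0.000555). In MDA-MB-231 CHEK1 held 70.6, 58.2 and 69.6 scaled CPM in libraries labelled MDM2 shRNA against 64.5, 65.8 and 52.0 in non-targeting libraries, and 74.1, 70.5 and 73.1 with the PROTAC against 54.4, 68.3 and 55.0 with DMSO, and neither pair passed, with 0.12 ± 0.11 (adjusted p 0.521) and 0.29 ± 0.11 (adjusted p 0.0923).

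The kinases ATM, ATR and CHEK2 had 2 calls in 12, no larger a share than that of all genes called. ATR, which answers single-stranded DNA, held 41.9, 48.9 and 50.3 scaled CPM in libraries labelled MDM2 shRNA against 41.2, 41.0 and 37.0 in non-targeting libraries, and 39.3, 50.3 and 63.7 with the PROTAC against 49.4, 44.4 and 50.4 with DMSO in MDA-MB-436. In MDA-MB-231 ATR held 49.7, 45.9 and 52.7 scaled CPM in libraries labelled MDM2 shRNA against 49.4, 47.9 and 47.6 in non-targeting libraries, and 56.6, 54.4 and 52.8 with the PROTAC against 47.5, 45.0 and 43.4 with DMSO. It rose in that line with the PROTAC, 0.27 ± 0.061 (adjusted p 0.00838), where the groups did not overlap, and the other comparisons gave 0.24, 0.09 and 0.04. ATM, the kinase called to broken ends, had some of the widest replicates, with 37.7, 42.2 and 28.5 scaled CPM in libraries labelled MDM2 shRNA against 51.5, 49.0 and 33.4 in non-targeting libraries, and 21.5, 40.9 and 34.7 with the PROTAC against 56.2, 36.9 and 68.2 with DMSO in MDA-MB-436. In MDA-MB-231 ATM held 109.8, 72.8 and 92.5 scaled CPM in libraries labelled MDM2 shRNA against 65.5, 98.2 and 61.1 in non-targeting libraries, and 119.8, 123.5 and 114.3 with the PROTAC against 91.8, 78.5 and 87.5 with DMSO. No ATM comparison passed, although the PROTAC pairs pointed apart, at -0.73 ± 0.28 (adjusted p 0.0653) in MDA-MB-436 and 0.47 ± 0.18 (adjusted p 0.0819) in MDA-MB-231. CHEK2, the kinase downstream of ATM, held 24.2, 27.0 and 26.2 scaled CPM in libraries labelled MDM2 shRNA against 32.0, 29.1 and 30.0 in non-targeting libraries, and 26.4, 23.0 and 23.7 with the PROTAC against 29.9, 30.0 and 28.2 with DMSO in MDA-MB-436, with treated libraries below all controls in both pairs. In MDA-MB-231 CHEK2 held 14.9, 14.5 and 13.7 scaled CPM in libraries labelled MDM2 shRNA against 12.7, 15.4 and 13.3 in non-targeting libraries, and 16.2, 14.2 and 14.4 with the PROTAC against 14.4, 16.2 and 14.0 with DMSO, with overlap in both pairs. It fell with the PROTAC in MDA-MB-436, -0.27 ± 0.086 (adjusted p 0.0323), and was -0.23 ± 0.085 (adjusted p 0.0594) with the shRNA label. The fall ended without the non-targeting replicate 1, 2 or 3 or the PROTAC replicate 2 or 3 or the DMSO replicate 1, 2 or 3 (log2 change -0.28 to -0.24, adjusted p 0.0527 to 0.115), and with library totals alone it was -0.10 (adjusted p 0.411).

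PARP1 (chr1:226360691-226408079, minus strand), the enzyme that marks DNA nicks with poly(ADP-ribose) and the target of drugs used in BRCA-mutant cancers, fell in MDA-MB-436. There it stood at 658.6, 651.1 and 651.5 scaled CPM in libraries labelled MDM2 shRNA against 739.3, 721.9 and 743.4 in non-targeting libraries, and 574.0, 664.8 and 596.5 with the PROTAC against 721.3, 738.5 and 719.6 with DMSO. All treated libraries lay below all controls, and the changes were 0.89-fold (95% interval 0.817 to 0.969) and 0.842-fold (95% interval 0.773 to 0.917), with adjusted p 0.0406 and 0.00535. The first of these calls ended without the MDM2 shRNA replicate 1, 2 or 3 or the non-targeting replicate 1, 2 or 3 or the DMSO replicate 1, 2 or 3 (log2 change -0.19 to -0.15, adjusted p 0.0535 to 0.127), and with library totals alone that value turned to 0.01 (adjusted p 0.911). The PROTAC fall also ended with library totals alone, at -0.08 (adjusted p 0.243), and with the 6 libraries alone, at -0.23 (adjusted p 0.0621). In MDA-MB-231 PARP1 was 0.11 ± 0.050 (adjusted p 0.147) with the shRNA label and rose with the PROTAC by 0.18 ± 0.050 (adjusted p 0.0205), a call that ended without the PROTAC replicate 1 or the DMSO replicate 2 (log2 change 0.14 to 0.17, adjusted p 0.0691 to 0.107). POLQ, the polymerase of the end joining that recombination-deficient cells lean on, rose in MDA-MB-436 with the shRNA label, 0.40 ± 0.12 (adjusted p 0.0256), and in MDA-MB-231 with the PROTAC, 0.39 ± 0.088 (adjusted p 0.00821). The POLQ call in MDA-MB-436 ended without the MDM2 shRNA replicate 2 or 3 or the non-targeting replicate 1 or 3 (log2 change 0.34 to 0.39, adjusted p 0.0664 to 0.0979). MSH6, which recognises mismatches, rose in MDA-MB-436 by 0.30 ± 0.085 and 0.29 ± 0.085, calls that ended without the MDM2 shRNA replicate 2 or 3 or the non-targeting replicate 2 (log2 change 0.23 to 0.27, adjusted p 0.0771 to 0.0977) and without the PROTAC replicate 1 or 2 or the DMSO replicate 2 or 3 (log2 change 0.26 to 0.29, adjusted p 0.056 to 0.0691). RAD18, which tags PCNA with ubiquitin, rose by 0.16 ± 0.049 in MDA-MB-231 with the shRNA label, a call that ended without the MDM2 shRNA replicate 1, 2 or 3 or the non-targeting replicate 1, 2 or 3 or the PROTAC replicate 2 or the DMSO replicate 1 or 3 (log2 change 0.13 to 0.17, adjusted p 0.0504 to 0.149).

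Over the 4 comparisons, 13 of the 40 genes rose every time: BRCA1, RAD51AP1, RAD54L, XRCC3, BLM, BRIP1, EXO1, RBBP8, FANCA, FANCI, UBE2T, RMI1 and TOPBP1. Another 7 rose in 3 comparisons, 9 in 2, 4 in 1 and 7 in none, and 5 were called in no comparison (ATM, NBN, RAD50, FANCC and FANCM). The shares of all genes with these patterns were not counted, so the patterns are not shown to be particular to the 40. Tested directly over all genes, the treated groups of a line differed in 1 gene in MDA-MB-436 and 3 in MDA-MB-231, and the control groups in 4 and 0. Few calls between groups of 3 do not show that the groups were the same. At an unadjusted edgeR p under 0.05 the control groups differed in 2579 genes in MDA-MB-436 and 903 in MDA-MB-231. The treated groups differed in 1051 and 1113 at that threshold. The comparisons of a line share 1 fit, and they are not taken as separate looks. Of the 100 calls among the 40 genes, 78 were kept with each library left out in turn, and of the 13 genes 10 kept all their calls.

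The response to the PROTAC was set against that to the hairpin label within each line, each with its own control. In MDA-MB-436 the 24 genes that rose with the PROTAC made up 85.7% of the 28 that rose with the shRNA label, and all 24 were among them. In MDA-MB-231, 17 rose with both, which is 81.0% of the PROTAC rises and 77.3% of the shRNA-label rises. The sign was the same for 39 of 40 genes in MDA-MB-436 and 37 of 40 in MDA-MB-231. These shares and signs were not counted over all genes. No gene of the 40 passed edgeR's test of PROTAC change minus shRNA-label change in either line, nor in DESeq2 or limma voom, where 0.00441% of all genes passed in MDA-MB-436 and 0.00484% in MDA-MB-231 by edgeR. With so few calls over all genes, the lack of a called difference was not particular to the 40. At an unadjusted p under 0.05 none of the 40 passed in MDA-MB-436 and 2 in MDA-MB-231. BRCA2 in MDA-MB-436 had the largest difference, -0.76 ± 0.50, with an interval of -1.85 to 0.33. The median absolute difference was 0.117 in MDA-MB-436 and 0.0961 in MDA-MB-231.

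The lines were compared in one fit of all 24 libraries, by testing the change in MDA-MB-436 minus the change in MDA-MB-231. With the shRNA label 10 of the 40 genes were more positive and 2 more negative in MDA-MB-436, where 9.94% and 9.77% of 24719 genes tested were so. With the PROTAC the counts were 10 and 4, against 11.8% and 10.5% of all genes. EXO1 differed by 0.87 ± 0.17 (adjusted p 0.00104) with the shRNA label and 0.64 ± 0.17 (adjusted p 0.0109) with the PROTAC. The other large positive differences with the shRNA label were BARD1 at 0.71 ± 0.13 (adjusted p 0.000672), CHEK1 at 0.68 ± 0.18 (adjusted p 0.00925) and RAD51D at 0.65 ± 0.13 (adjusted p 0.00107). With the PROTAC they were RMI2 at 0.95 ± 0.20 (adjusted p 0.00179), FANCG at 0.68 ± 0.19 (adjusted p 0.0118) and XRCC3 at 0.62 ± 0.14 (adjusted p 0.00225). The 2 negative differences with the shRNA label were FANCL at -0.54 ± 0.13 (adjusted p 0.00538) and PARP1 at -0.30 ± 0.085 (adjusted p 0.0167).

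With the PROTAC the 4 negative differences were ATM at -1.20 ± 0.35 (adjusted p 0.016), XRCC2 at -0.57 ± 0.12 (adjusted p 0.00225), FANCF at -0.53 ± 0.19 (adjusted p 0.0481) and PARP1 at -0.43 ± 0.085 (adjusted p 0.000871). ATM was called in neither line alone, and its difference had an interval of -1.92 to -0.47. BRCA1 did not differ by test, at 0.06 ± 0.12 (interval -0.20 to 0.32) with the shRNA label and 0.05 ± 0.12 (interval -0.20 to 0.31) with the PROTAC. Of the 26 line differences called, 16 were kept with each library left out in turn. Among those named, ATM ended without MDA-MB-436 DMSO replicate 3 (adjusted p 0.0599), the shRNA-label difference of PARP1 without MDA-MB-231 MDM2 shRNA replicate 1 or 3, MDA-MB-231 non-targeting replicate 2 or 3 or MDA-MB-436 non-targeting replicate 3 (up to 0.0751), and FANCF without any of 18 libraries (up to 0.112). The count of 12 genes for the shRNA label was 7 without MDA-MB-231 MDM2 shRNA replicate 1 or 2 or MDA-MB-436 MDM2 shRNA replicate 2 or 3, and 17 without the MDA-MB-436 PROTAC replicate 3 that stood apart. The PROTAC count of 14 was 15 without that library.

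**Figure D3:**
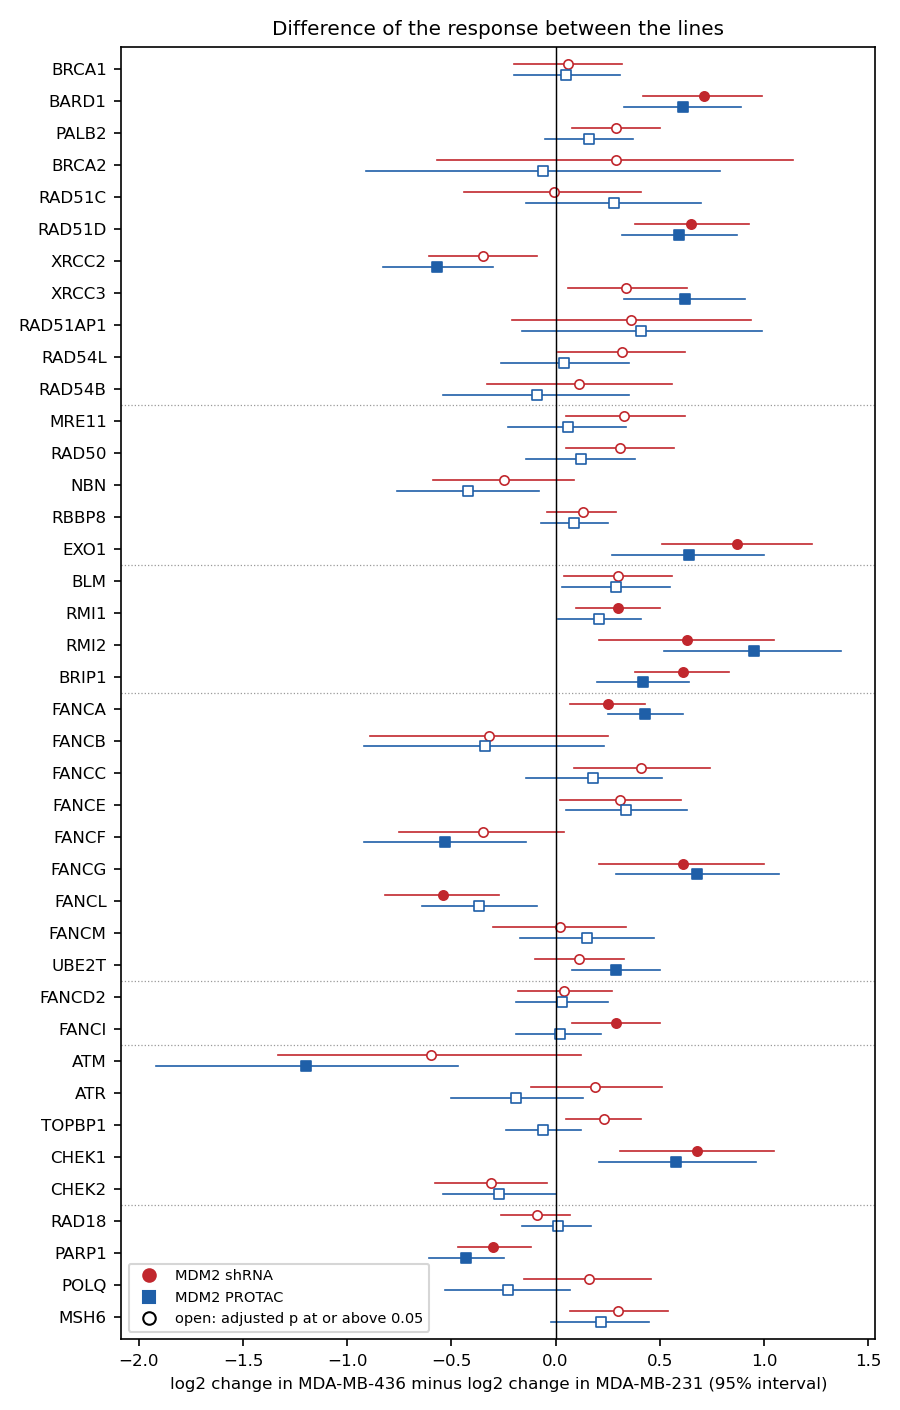
Log2 change in MDA-MB-436 minus log2 change in MDA-MB-231 for each of the 40 genes, with 95% intervals from the fit of 24 libraries. Circles are the shRNA label and squares the PROTAC, and open symbols did not pass. RMI2 and EXO1 lie farthest right at 0.95 and 0.87, and ATM farthest left at -1.20.

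The control libraries of the lines were compared in the same fit. In non-targeting libraries 13 of the 40 genes were higher and 19 lower in MDA-MB-436 than in MDA-MB-231, where 31.1% and 25.7% of all genes were. In DMSO libraries 15 were higher and 16 lower, against 29.6% and 27.2% of all genes. In non-targeting libraries the share of the 40 that was higher lay near the background, and the share that was lower above it. FANCE was the most different, -2.29 ± 0.10 (adjusted p 1.67e-13) in non-targeting and -2.39 ± 0.10 (adjusted p 1e-13) in DMSO libraries. POLQ was higher, by 1.90 ± 0.11 (adjusted p 4.29e-12) and 2.16 ± 0.11 (adjusted p 7.13e-13). FANCF was higher by 1.69 ± 0.13 and 1.99 ± 0.14, CHEK2 by 1.09 ± 0.093 and 0.91 ± 0.093, and TOPBP1 by 1.00 ± 0.062 and 1.23 ± 0.062. BRIP1 was lower, at -1.18 ± 0.076 and -0.94 ± 0.076, and MRE11 at -1.14 ± 0.098 and -0.97 ± 0.098. BRCA1 was lower in the BRCA1-mutant line, at -0.45 ± 0.088 (adjusted p 0.000162) and -0.24 ± 0.088 (adjusted p 0.0263). 

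Levels between genes and lines were set side by side per kilobase of exon, with CPM scaled over all 24 libraries. PARP1 was the most abundant of the 40 in the 6 control libraries of either line, at 100 ± 3.07 scaled CPM per kb in MDA-MB-436 and 57.2 ± 1.42 in MDA-MB-231 (SD, n = 6). RAD51D was the lowest in MDA-MB-436, at 1.46 ± 0.0718, and FANCB in MDA-MB-231, at 1.72 ± 0.246. FANCE ranked 24 in MDA-MB-436, at 5.89 ± 0.685, and 3 in MDA-MB-231, at 29.8 ± 1.59. POLQ ranked 15 in MDA-MB-436, at 10.5 ± 1.21, and 37 in MDA-MB-231, at 2.55 ± 0.139. BRCA1 and BRCA2 were among the low ones, at 2.79 ± 0.235 and 2.11 ± 0.679 in MDA-MB-436 and 3.54 ± 0.0972 and 3.18 ± 0.559 in MDA-MB-231. Exon lengths are those of GENCODE 29, with every annotated exon counted. In 22 of the 40 genes an exon overlaps another gene, on the same strand in BRCA1, RAD51D, RAD54B, RBBP8, RAD50 and CHEK1, so reads of such pairs may be shared. The strand setting of the counts is not given in the sources used here.

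**Figure D4:**
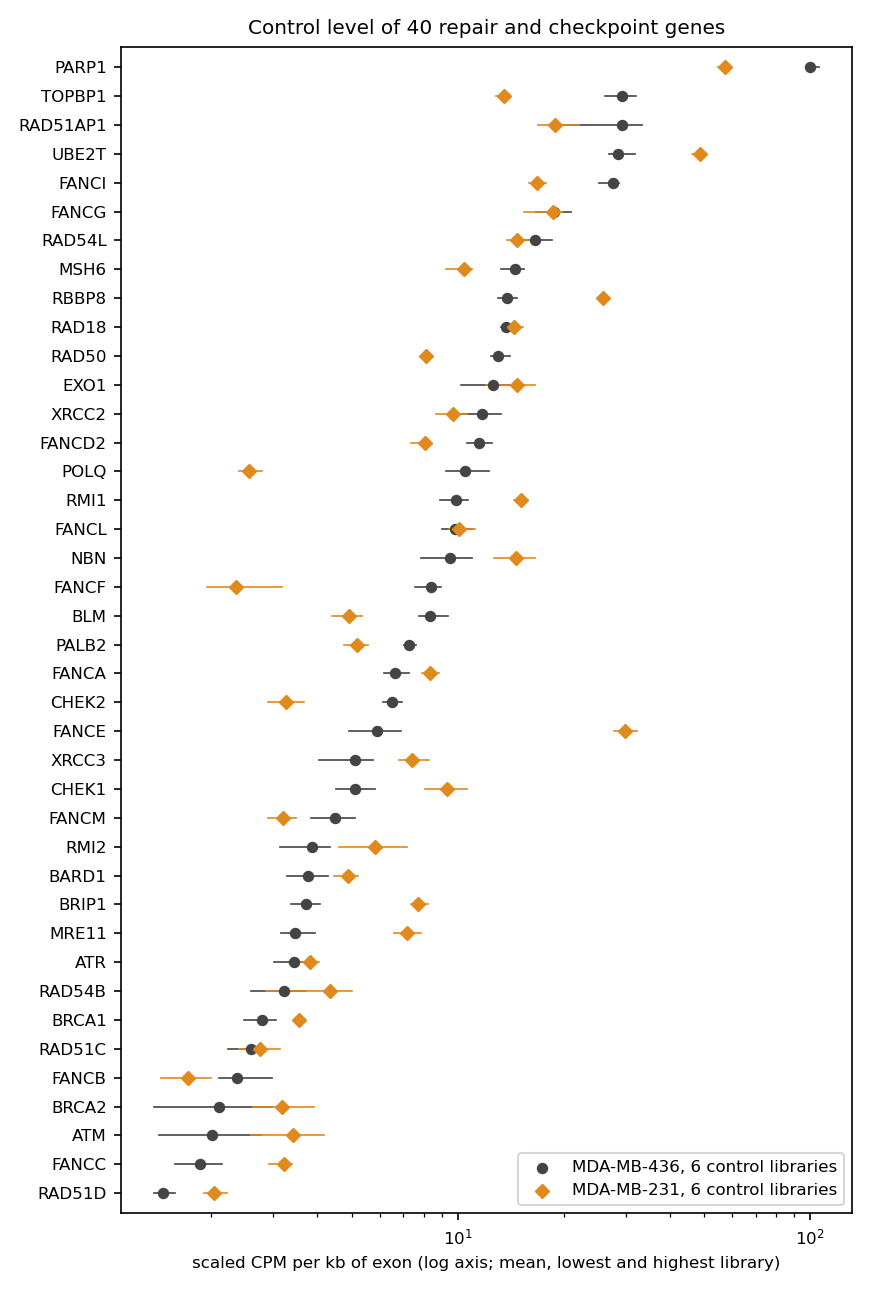
Control level of the 40 genes in scaled CPM per kb of exon on a log axis, as the mean with the lowest and highest of 6 control libraries, for MDA-MB-436 (circles) and MDA-MB-231 (diamonds). Genes are ordered by the MDA-MB-436 level. FANCE and POLQ lie far apart between the lines, and PARP1 is at the top in both.

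Genes of the same pathways outside the 40 were counted in lists. These counts are to be read against all genes tested, of which 11.1 to 17.3% rose and 11.5 to 15.1% fell, depending on the comparison. Of 23 other genes of recombination and resection, 12 rose and 2 fell with the shRNA label and 10 rose and 1 fell with the PROTAC in MDA-MB-436, where RAD51B was too low to test. In MDA-MB-231, 6 rose and 3 fell with the shRNA label and 7 rose and 4 fell with the PROTAC. MCM8, a helicase of recombination, rose by 1.00 ± 0.065 and 0.96 ± 0.065 in MDA-MB-436 and by 0.57 ± 0.043 and 0.55 ± 0.043 in MDA-MB-231. SPIDR, a scaffold that binds BLM, fell in all 4 comparisons, with log2 changes of -0.59, -0.50, -1.02 and -0.79.

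Of 12 other Fanconi and crosslink genes, 3 rose with the shRNA label and 5 with the PROTAC in MDA-MB-436, 3 rose with either in MDA-MB-231, and none fell. USP1, which takes the ubiquitin off FANCD2, rose by 0.57, 0.54, 0.27 and 0.30 in that order of groups. Its partner WDR48 rose with the PROTAC, by 0.62 in MDA-MB-436 and 0.34 in MDA-MB-231. MAD2L2, a subunit of a bypass polymerase, rose in 3 comparisons and was 0.40 ± 0.14 (adjusted p 0.0515) in the other, MDA-MB-436 with the shRNA label. Of 29 other checkpoint and break signalling genes, 10 rose and 3 fell with the shRNA label and 10 rose and 4 fell with the PROTAC in MDA-MB-436, and 7 and 8 rose and 6 fell each in MDA-MB-231. CDC25A, a phosphatase that CHEK1 restrains, rose by 1.23, 1.31, 0.64 and 0.85. RAD1, of the clamp that recruits TOPBP1, rose by 0.45, 0.71, 0.49 and 0.35. BABAM2, of a BRCA1 complex, fell in all 4, with log2 changes of -0.77, -0.61, -1.86 and -2.10.

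Of 12 end joining genes, the route that competes with recombination, 4 rose and 4 fell with the shRNA label and 3 rose and 3 fell with the PROTAC in MDA-MB-436. None rose and 2 fell with the shRNA label in MDA-MB-231, and 1 rose and 1 fell with the PROTAC. XRCC6 and XRCC5 form the Ku ring that holds broken ends. XRCC6 averaged 364.8 ± 4.71 scaled CPM in MDA-MB-436 libraries labelled MDM2 shRNA against 654.2 ± 22.9 in non-targeting ones, and 337.9 ± 29.2 with the PROTAC against 620.9 ± 19.6 with DMSO (SD, n = 3 each). It fell there, with log2 changes of -0.84 ± 0.064 (adjusted p 2.97e-06) and -0.88 ± 0.064 (adjusted p 2.05e-06), and XRCC5 with -0.57 ± 0.056 (adjusted p 1.51e-05) and -0.60 ± 0.056 (adjusted p 1.1e-05). In MDA-MB-231 XRCC6 was not called, at -0.06 and -0.02, and XRCC5 was 0.06 with the shRNA label and rose by 0.10 with the PROTAC. XRCC1, the scaffold of single-strand break repair, rose in MDA-MB-436 by 1.13 and 1.27 and was not called in MDA-MB-231.

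Of 6 other mismatch repair genes, none fell with the shRNA label and 1 with the PROTAC in MDA-MB-436, and 1 fell with either in MDA-MB-231. Only falls are counted for this list, and its rises are not reported here, so no direction of the list is given. PMS2 fell with the PROTAC in MDA-MB-436, at -0.46, and MSH3 fell in both MDA-MB-231 comparisons, at -0.26 and -0.22. Of 9 translesion genes, 1 rose with the shRNA label and none with the PROTAC in MDA-MB-436, 1 rose with either in MDA-MB-231, and none fell. The gene was REV3L in MDA-MB-436, 0.50 ± 0.15 (adjusted p 0.0233), and POLH in MDA-MB-231, 0.45 ± 0.047 (adjusted p 4.91e-05) and 0.51 ± 0.047 (adjusted p 2.07e-05). UBE2A, the partner of RAD18, was called nowhere. With 6 and 9 genes in these lists, counts of 0 or 1 lie near the share of all genes called and show no result for either route.

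The cell-cycle genes with the smallest adjusted p were RRM2, CDC6, E2F1, CDC20, CCNB1 and CCNA2. RRM2, of ribonucleotide reductase, rose by 0.48 ± 0.055 and 0.39 ± 0.055 in MDA-MB-436 and by 1.17 ± 0.038 and 1.19 ± 0.038 in MDA-MB-231. CDC6, which licenses origins, rose by 1.28 ± 0.054 and 1.18 ± 0.053 in MDA-MB-436 and by 0.65 ± 0.036 and 0.73 ± 0.036 in MDA-MB-231. E2F1 rose by 1.54 ± 0.096 and 1.64 ± 0.096 in MDA-MB-436, and in MDA-MB-231 it rose, with overlapping groups, by 0.18 ± 0.052 (adjusted p 0.0296) with the shRNA label and was not called with the PROTAC, at 0.04 ± 0.052 (adjusted p 0.705). The mitotic genes fell, CDC20 at -1.21 and -1.04 in MDA-MB-436 and -1.22 and -1.23 in MDA-MB-231. CCNB1 fell at -1.56, -1.57, -1.06 and -1.06 in the same order, and CCNA2 at -1.12, -1.25, -0.16 and -0.16.

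**Figure D5:**
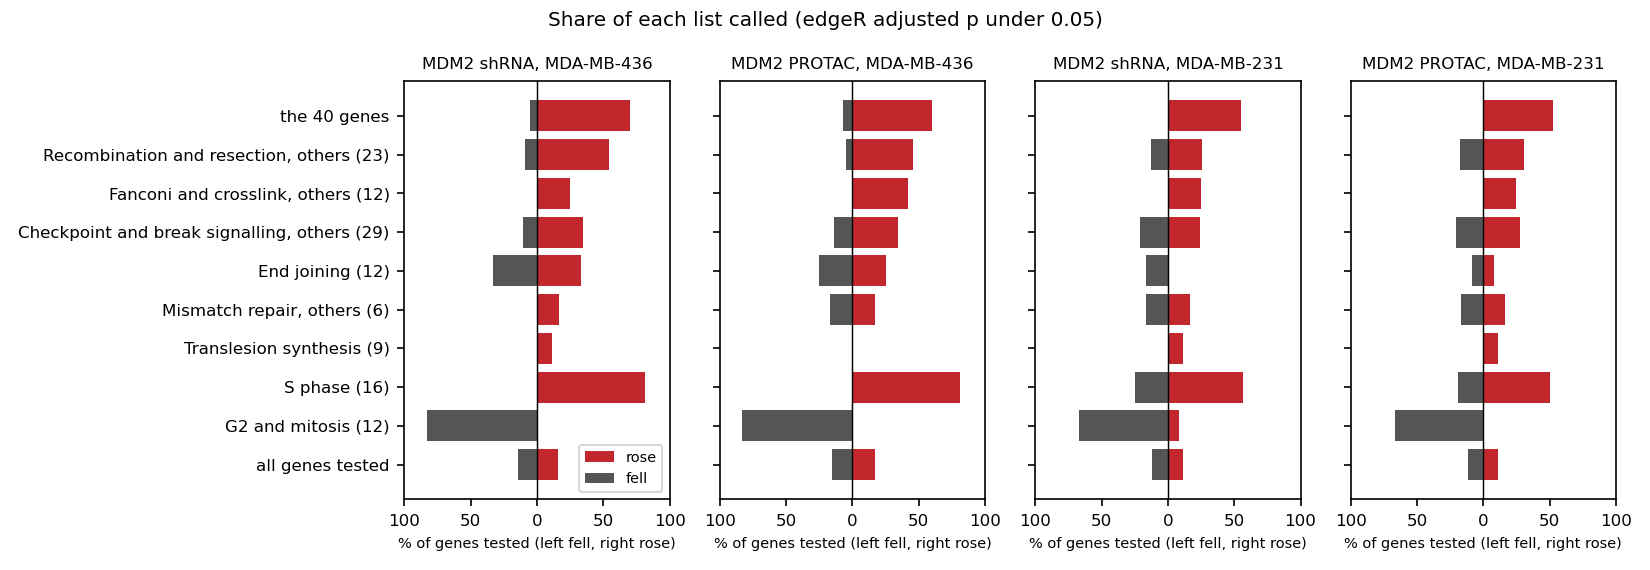
Share of the tested genes of each list that rose (right) and fell (left), in percent, for the 4 comparisons, with the 40 genes at the top and all genes tested at the bottom. Numbers in brackets are list sizes. The 40 genes rose at 70.0, 60.0, 55.0 and 52.5% from left to right, above the 16, 17.3, 11.1 and 11.1% of all genes, and the G2 and mitosis list lies mainly to the left.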

How the data were processed

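RNA counts per gene were deposited by the authors as 1 table for each library, in whole numbers and without normalization. The submitters' processing notes name cutadapt 2.4, HISAT2, StringTie, edgeR and GRCh38, without stating their roles. The annotation and the strand setting of the counts are not given in the sources used here. Genes were matched by Ensembl identifier to GENCODE 29, which gave exon lengths and overlaps, and to a separate list of gene names, which gave symbols.

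Genes passing edgeR's filterByExpr were scaled by TMM and tested by edgeR's quasi-likelihood F test with Benjamini-Hochberg adjustment over all genes. The 12 libraries of a line shared 1 fit (8 residual degrees of freedom), and all 24 shared 1 for comparisons of the lines (16). R 4.3.3, edgeR 4.0.16, limma 3.58.1, DESeq2 1.42.0 and Python 3.11.15 were used. The edgeR fits were also run on simulated counts with known changes, and that outcome is not given here. Alternatives were DESeq2, limma voom, other scalings and filters, shallower counts, a replicate block, other sets of libraries, genes without exon overlap, a stricter threshold and each library left out.

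Per-library values are given for BRCA1, BRCA2, ATM, ATR, CHEK1 and CHEK2, for genes that rose in all 4 comparisons, and for the 8 largest rises and 8 largest falls without overlap in each. Up to 4 differences between lines are named in each direction, and from each other list the 3 genes with the smallest adjusted p, apart from any not reported here. The 40 genes and the lists were chosen with earlier results of these data known. Replicate numbers did not pair the libraries.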

Additional observations from a re-analysis of the deposited data

Results flagged for a closer look

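The change in MDA-MB-436 differed from the change in MDA-MB-231, by edgeR's test of the difference in one fit of 24 libraries at an adjusted p under 0.05, for 17 of the 40 genes and 26 values. Values are log2 changes in MDA-MB-436 minus those in MDA-MB-231. Negative differences were no more frequent among the 40 than among all genes tested.

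Among genes of strand exchange, BARD1 differed by 0.71 with the shRNA label and 0.61 with the PROTAC, and RAD51D by 0.65 and 0.59. XRCC3 differed with the PROTAC, by 0.62, and XRCC2 with the PROTAC in the other direction, by -0.57. EXO1 differed by 0.87 and 0.64, and the helicase BRIP1 by 0.61 with the shRNA label and 0.42 with the PROTAC.

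Of the complex with BLM, RMI2 differed by 0.63 and 0.95, and RMI1 by 0.30 with the shRNA label. Of the Fanconi genes, FANCA differed by 0.25 with the shRNA label and 0.43 with the PROTAC, FANCG by 0.61 and 0.68, and FANCI by 0.29 with the shRNA label. UBE2T differed with the PROTAC, by 0.29. FANCL differed with the shRNA label, by -0.54, and FANCF with the PROTAC, by -0.53.

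CHEK1 differed by 0.68 with the shRNA label and 0.58 with the PROTAC, and ATM with the PROTAC by -1.20. PARP1 differed by -0.30 with the shRNA label and -0.43 with the PROTAC. Of the 26 values 16 were called with each library left out in turn, and the others ended without 1 or more libraries: ATM (PROTAC, 1), CHEK1 (PROTAC, 5), FANCA (shRNA label, 16), FANCF (PROTAC, 18), FANCG (shRNA label, 8), FANCI (shRNA label, 19), PARP1 (shRNA label, 5), RMI1 (shRNA label, 8), RMI2 (shRNA label, 8), UBE2T (PROTAC, 21), where the number is how many libraries each ended the call when left out. The control libraries of the lines also differed in 32 of the 40 genes (non-targeting) and 31 (DMSO), and the part of these levels in the differences was not tested.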

How the results depend on the processing

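The counts of genes that rose were within 1.5 times the values given under DESeq2 (28 and 24 in MDA-MB-436 with the shRNA label and the PROTAC, 22 and 24 in MDA-MB-231), limma voom (28 and 23, 22 and 22) and one fit of 24 libraries (29 and 25, 17 and 18). Restricting the test to genes whose exons overlap no other gene left 18 of the 40. Of these 13 and 10 rose and 0 and 1 fell in MDA-MB-436, 13 and 11 rose in MDA-MB-231, 6 and 6 differed between the lines, and in controls 5 were higher and 8 lower (non-targeting) and 7 higher and 6 lower (DMSO); fewer genes were tested there. The 2 falls with the shRNA label in MDA-MB-436 became 1 with no filter, with library totals alone, with the replicate block and at an adjusted p under 0.01. The 3 falls with the PROTAC there became 5 in one fit of 24 libraries, and 1 with library totals alone and with the 6 libraries alone. The shRNA-label line differences became 21 with library totals alone and 6 at an adjusted p under 0.01, and the PROTAC ones 8 at that threshold. PARP1 with the shRNA label in MDA-MB-436 reversed to 0.01 with library totals alone. Apart from the thresholds and the smaller gene set, the cause was not tested.

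With 1 library left out, between 22 and 29 genes rose and between 1 and 3 fell with the shRNA label in MDA-MB-436, and between 21 and 26 rose and between 2 and 3 fell with the PROTAC. In MDA-MB-231 between 16 and 22 rose with the shRNA label and between 19 and 23 with the PROTAC, and 0 fell. The PROTAC and shRNA-label changes differed in 0 genes in each case. Line differences numbered between 7 and 17 with the shRNA label and between 10 and 15 with the PROTAC. In controls between 12 and 13 were higher and between 17 and 20 lower (non-targeting), and between 13 and 16 higher and between 15 and 16 lower (DMSO). The falls with the shRNA label in MDA-MB-436 were 1 without any single DMSO, MDM2 shRNA or non-targeting library of that line.

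Same-numbered libraries of a line had correlated deviations between -0.0953 and 0.0471 in MDA-MB-436 and between -0.0281 and 0.0251 in MDA-MB-231, so the numbers pair nothing. With the replicate block 28 and 23 rose and 1 and 2 fell in MDA-MB-436, 19 and 22 rose and 0 fell in MDA-MB-231, and 11 and 13 differed between the lines. Of the 100 calls of single genes, 2366 of 2549 alternative values kept the direction and the call, 182 lost the call and 1 reversed.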

Other observations

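The control groups of each line, and its treated groups, were also set against each other directly, a comparison chosen after seeing the data. Between the MDM2 PROTAC and the libraries labelled MDM2 shRNA, edgeR called 1 of 22663 genes in MDA-MB-436 and 3 of 20675 in MDA-MB-231 at an adjusted p under 0.05, and 1051 and 1113 at an unadjusted p under 0.05. Between DMSO and non-targeting libraries it called 4 and 0 genes, and 2579 and 903 at the unadjusted threshold. None of the 40 repair genes was called in any of the 4 contrasts. At an unadjusted p under 0.05 there were 2 of the 40 in either line for the treated groups, and 7 in MDA-MB-436 and 1 in MDA-MB-231 for the controls. The log2 differences of the 40 between treated groups lay between -0.23 and 0.38 in MDA-MB-436 and between -0.24 and 0.38 in MDA-MB-231. Those of DMSO against non-targeting libraries lay between -0.25 and 0.60 in MDA-MB-436 and between -0.28 and 0.33 in MDA-MB-231.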
